A study of Homo sapiens with 17 samples.

Results

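AluJ and monomeric Alu elements are the oldest classes of Alu repeats in the human genome, and 357754 of their copies were followed across 17 RNA-sequencing libraries. Their members were taken by name, as all repeat loci of the class SINE/Alu whose subfamily name starts with AluJ, FLAM, FRAM or FAM, out of 4748242 repeat loci in each table, a share of 7.53%. The libraries came from IMR90 ER:RAS cells, a human lung fibroblast line that carries a retroviral fusion of RASG12V to the oestrogen receptor, so that 4-hydroxytamoxifen (4OHT) switches RAS on and drives the cells into senescence. All 3 groups carried this construct and all were transfected with a small interfering RNA (siRNA) a day before 4OHT or its solvent, with RNA taken at day 7. DMSO siNT (n = 5) had the solvent and a non-targeting siRNA, 4OHT siNT (n = 6) had 4OHT and that siRNA, and 4OHT siSMARCA4 (n = 6) had 4OHT and an siRNA against SMARCA4, the motor of SWI/SNF complexes that move nucleosomes. No group had the SMARCA4 siRNA without 4OHT. The labels put a 2 or a 4 after each siRNA name, read here as an siRNA number though nothing says what it means for the non-targeting control, and add the tag V or VM, whose meaning they do not give. All 4OHT siNT libraries are VM, against 3 of 6 siSMARCA4 and 3 of 5 DMSO libraries. Nothing says that libraries of a group came from separate cultures, so the p-values measure the spread between these libraries, which may be technical.

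Alu elements are short repeats without a protein of their own, derived from the RNA of the signal recognition particle and copied by the enzymes of LINE elements. The monomers (FLAM, the free left arm, FRAM, the free right arm, and FAM, the fossil monomer) preceded the dimeric Alu, whose left and right arms are joined by an A-rich linker, and AluJ is the oldest dimeric group, followed by AluS and AluY. The left arm holds an internal promoter of RNA polymerase III, made of an A box and a B box, but most Alu sequence in a cell lies within the introns and untranslated ends of genes and is copied as a part of their transcripts. The libraries were enriched for poly(A) RNA, and a count on an element gives no transcript start, so a transcript of the element and a longer transcript that runs through it cannot be told apart here.

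By subfamily, AluJb held 171586 members, AluJo 59876, AluJr 55793 and AluJr4 25070, and the monomers held 45429, of which 16474 were FLAM_C, 15369 FLAM_A, 10490 FRAM and 3096 FAM. Median lengths were 287 bases for AluJb, 276 for AluJo, 282 for AluJr and 204 for AluJr4, and 123, 129, 148 and 159 bases for FLAM_A, FLAM_C, FRAM and FAM. The median GC content over all members was 49.8%. Read in the direction of the element, the last 15 bases were 65.8% adenine on average, against 17.3% in the first 15 bases, the A-rich tail being a mark of the class.

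The element printed here is the most counted FAM outside exons, in an intron of RRP36, chosen so that a reader can see a monomer of the fossil class in full. Its letters are RefSeq's of GRCh38 on the strand named. Capitals would mark a match to a box, and it holds none.
FAM of RRP36, chr6:43032834-43032960, plus strand: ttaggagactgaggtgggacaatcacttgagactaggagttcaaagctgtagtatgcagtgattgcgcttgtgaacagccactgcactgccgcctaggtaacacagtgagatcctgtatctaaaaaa

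The motifs searched along each element's own strand were TGGCTCACG with its decayed forms TGGCTCATG and TGGCTCACA for the A box, and GTTCGAGAC with GTTTGAGAC and GTTCAAGAC for the B box. Over all 357754 members, 34.5% held a form of the A box and 36.9% a form of the B box. FLAM_C held them most often, at 44.1% and 46.2%, and the 4 AluJ subfamilies at 32.3% to 37.0% and 36.2% to 39.6%. In FRAM, the right arm, the shares were 19.5% and 2.45%, and in FAM 1.03% and 2.91%. FLAM_A held the A box in 4.26% and the B box in 20.2% of its loci. Elements that passed the count filter held the boxes in 36.6% and 42.8% of cases, and those without any count in 34.0% and 36.0%. Among the 63 that rose with siSMARCA4 the shares were 31.7% and 42.9%, and among the 203 that rose with 4OHT 36.5% and 40.4%. These are letter matches in a window, not sites of transcription.

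Counts on these elements were sparse. Together they held 1221469 counts over the 17 libraries, and 91275 elements (25.5%) had at least 1. Of those, 31381 had a single count and 62722 (68.7%) had at most 5. Only 1357 elements (0.379% of members) passed the filter on low counts, and they held 40.8% of the member counts. The 10 most counted elements held 6.17% and the top 100 held 15.7%.

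Library totals ran from 39.1 to 69.0 M counts (M, 1e6), of which 1.35% to 1.93% fell on repeats. SMARCA4 itself had means of 198, 268 and 88.0 CPM (counts per 1e6 library counts) in DMSO siNT, 4OHT siNT and 4OHT siSMARCA4, a log2 fold change of −1.61 between the last 2 (edgeR, adjusted p = 5.1e-07). The fibroblast markers COL1A1 (10766, 6291 and 2291 CPM) and VIM (5982, 5963 and 5717 CPM) were high, and EPCAM, CDH1, CDH5, PTPRC and CD3E had group means under 1 CPM. Fewer cells of a type and less RNA per cell cannot be told apart in such bulk libraries. Counts at 40847 sparse repeat loci more than 50000 bp from any gene, a measure of low-level signal across the genome that holds 983 members, summed to 35.9 to 68.9 CPM in 4OHT siNT, 70.6 to 198 CPM in 4OHT siSMARCA4 and 47.6 to 119 CPM in DMSO siNT. The 2 groups of the SMARCA4 comparison did not overlap in it. This measure therefore moved with the groups. Fits that hold it as a covariate were run for the subfamilies, place classes and elements, and their calls are given where they moved.

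Summed over all members, 4OHT siSMARCA4 was above 4OHT siNT in every library. The sum was 1110 to 1272 CPM of the library total in 4OHT siNT (1207 ± 58.6, SD, n = 6), 1371 to 1760 in 4OHT siSMARCA4 (1600 ± 126, n = 6) and 1015 to 1621 in DMSO siNT (1230 ± 244, n = 5). The 2 senescent groups did not overlap, while DMSO siNT spanned the range of both, with 2 siSMARCA4 libraries above its highest. The ratio of means was 1.33 for siSMARCA4 to siNT and 0.981 for 4OHT to DMSO. The latter had no stable direction, being 1.06 with TMM factors and 0.940 to 1.065 with 1 library left out. Younger Alu elements had a like ratio, 1.32 for AluS and 1.36 for AluY, against 1.20 for all repeats. The share of all SINE/Alu counts that fell on these elements was 29.1% ± 1.70, 28.5% ± 0.75 and 28.5% ± 1.57 in DMSO siNT, 4OHT siNT and 4OHT siSMARCA4, so they kept pace with the rest of the class. Within siSMARCA4, the VM libraries ran from 1371 to 1604 CPM and the V libraries from 1619 to 1760, and both ranges lay above all 4OHT siNT libraries.

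The comparison of siSMARCA4 with siNT in senescent cells asked whether loss of the remodeller changes repeat RNA. It called 7 of the 8 subfamilies higher, and FAM, the smallest, did not pass the test. Of all 1026 repeat subfamilies tested 20.4% were called, 19.4% as higher. The median log2 change was 0.36 over the 8 and 0.25 over all subfamilies. CPM of single subfamilies and elements below are scaled by the TMM factors of the fit.

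AluJb, the largest subfamily, measured 634 to 708 CPM in 4OHT siNT and 741 to 985 CPM in 4OHT siSMARCA4, without overlap. Its log2 fold change was 0.38 ± 0.098 (SE, adjusted p = 0.0126). AluJo went from 206 to 230 CPM in 4OHT siNT to 245 to 318 CPM with siSMARCA4, again without overlap, a change of 0.38 ± 0.095 (adjusted p = 0.0119). AluJr (173 to 203 against 209 to 269 CPM) rose by 0.35 ± 0.093 (adjusted p = 0.0154), and its groups did not overlap. AluJr4 (68.0 to 76.5 against 74.1 to 95.6 CPM) rose by 0.30 ± 0.091 (adjusted p = 0.0246), with an overlap of the groups. Differences in change between subfamilies were not tested.

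Among the monomers, FLAM_C had the largest change, 0.42 ± 0.099 (adjusted p = 0.0091), from 32.1 to 40.3 CPM in 4OHT siNT to 40.8 to 56.2 CPM in 4OHT siSMARCA4. FLAM_A, at 23.9 to 29.3 and 29.0 to 40.3 CPM, rose by 0.39 ± 0.10 (adjusted p = 0.0148). FRAM, the right arm, rose by 0.29 ± 0.084 (adjusted p = 0.0223) and did not overlap, at 23.2 to 28.8 and 29.8 to 34.2 CPM. FAM lay at 7.32 to 9.31 CPM and 7.80 to 11.3 CPM, with a change of 0.16 ± 0.12 (adjusted p = 0.35). No overlap between the groups was seen in 5 of the 8, AluJb, AluJo, AluJr, FLAM_C and FRAM, against 12.1% of all subfamilies, 11.7% in the higher direction. In the same fit 13 of 17 AluS subfamilies and 7 of 24 AluY subfamilies rose.

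The 7 calls did not hold under every treatment of the libraries. Scaling by repeat counts alone lowered every log2 change by 0.23 and left 0 of 8 subfamilies called, with changes from −0.08 (FAM) to 0.19 (FLAM_C). Of all subfamilies 2.73% were called in that fit. With the far-locus CPM as a covariate 0 of 8 were called, with changes from −0.01 (FAM) to 0.28 (FLAM_C), where 0.195% of all subfamilies were called. With the V or VM tag as a covariate 0 were called, against 5.75% of all subfamilies, and the changes were 0.04 to 0.32. Within the VM libraries 3 were called (AluJb, AluJo and FLAM_C), all higher, where 9.75% of all subfamilies were called higher. Leaving out 1 library at a time, AluJr4 lost its call without 4OHT siNT 4-2VM, siSMARCA4 2-3V or siSMARCA4 4-2V, and FRAM without 4OHT siNT 4-2VM or 4-3VM. Fitted apart, siRNA number 2 gave changes of 0.08 to 0.48 and siRNA number 4 changes of 0.31 to 0.49, with 0 of 8 called in either. Of all subfamilies 1.17% and 6.35% were called in those fits. The difference between the siRNA numbers, tested for all 1026 subfamilies after those values were seen, ran from −0.24 (FAM) to 0.13 (AluJb) over the 8, and its adjusted p-values were all at least 0.98.

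**Figure D1:**
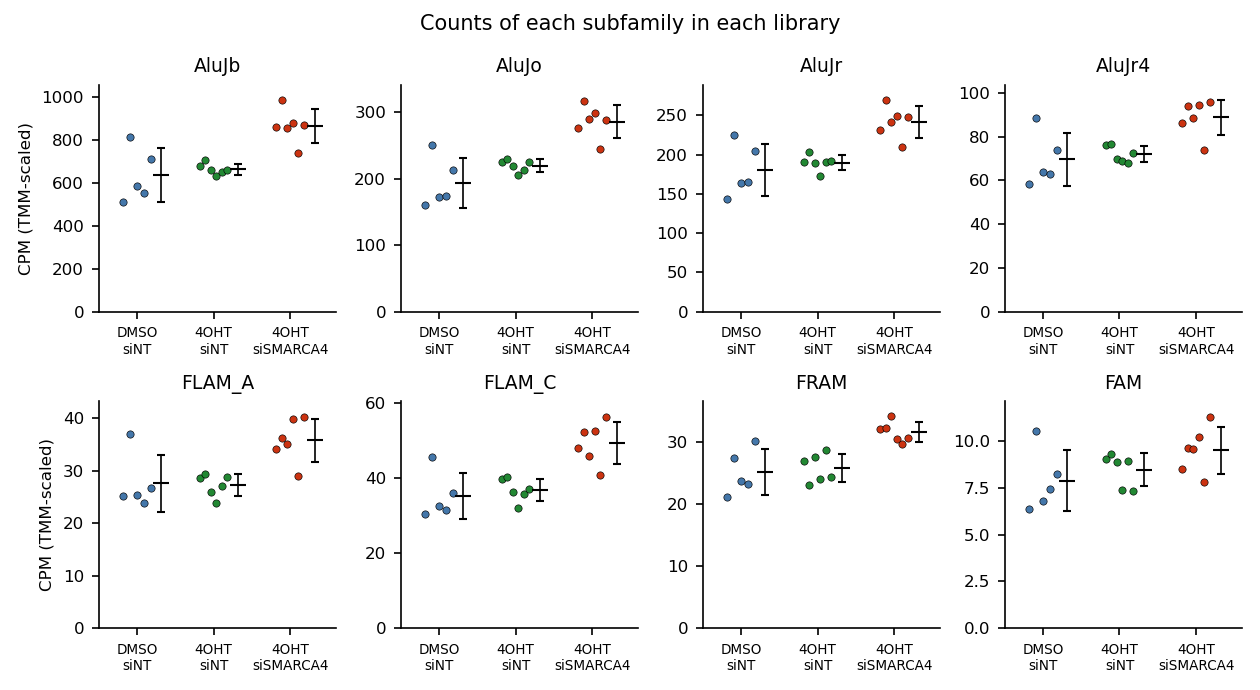
Each panel is a member subfamily, the y axis is its level in CPM on a linear scale, and points are the 17 libraries by group, 5 of DMSO siNT and 6 of each senescent group, with the mean and SD. AluJb siSMARCA4 libraries sit at 741 to 985 CPM, above the 634 to 708 CPM of 4OHT siNT, and DMSO siNT is the widest group.

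**Figure D2:**
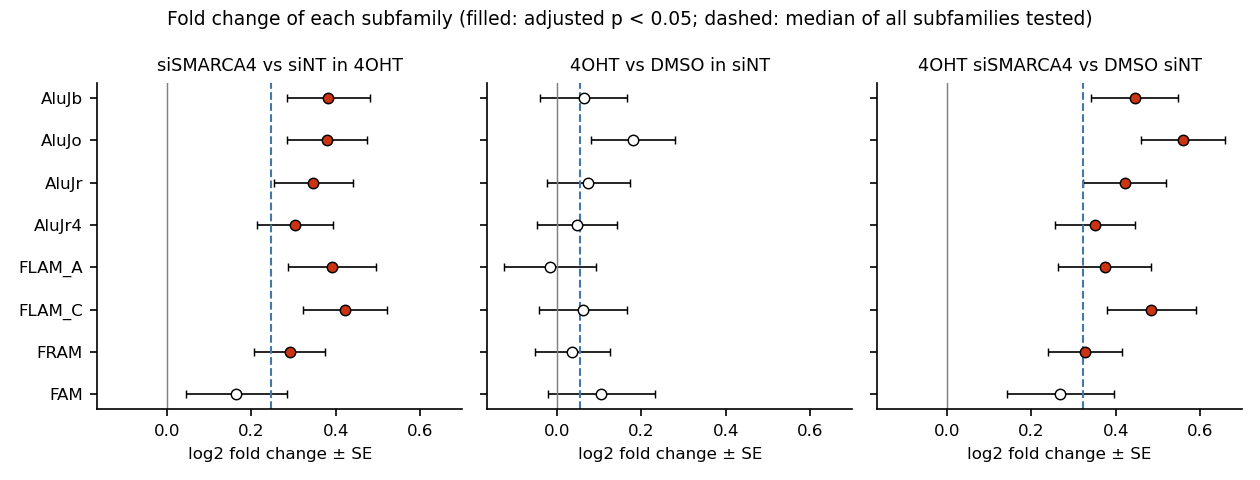
Points are log2 fold changes with SE of the 8 subfamilies in 3 comparisons, filled where the adjusted p is under 0.05, and the dashed line is the median of all 1026 subfamilies tested. For siSMARCA4 against siNT 7 points are filled, from 0.29 to 0.42, and for 4OHT against DMSO no point is filled.

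The comparison of 4OHT with DMSO in cells with the non-targeting siRNA gave no call for any subfamily. By edgeR 0 of 8 were called, 0 had an unadjusted p under 0.05, and DESeq2 called 0, while 16.9% of all subfamilies were called. Log2 changes ran from −0.02 for FLAM_A to 0.18 for AluJo (adjusted p = 0.256), with a median of 0.06 over the 8 and 0.05 over all subfamilies. Without the 2 DMSO libraries of highest far-locus CPM, 2-2V and 4-3VM, a fit added after their levels were seen, 3 of 8 were called higher, AluJb (0.26), AluJo (0.37) and AluJr (0.26), where 14.4% of all subfamilies were called higher. With the far-locus covariate 1 was, AluJo (0.27), where 12.6% of all were. The mean AluJb level in DMSO siNT was 636 CPM, against 665 CPM in 4OHT siNT, and the mean AluJo level was 194 CPM, against 220 CPM.

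Set against DMSO siNT, senescent cells with siSMARCA4 had 7 of 8 subfamilies higher, where 30.4% of all subfamilies were called higher. This comparison shares its libraries with both others and adds no independent evidence. Changes ran from 0.27 ± 0.13 for FAM (adjusted p = 0.107) to 0.56 for AluJo (adjusted p = 0.00042), and 0 of 8 were without overlap, against 13.0% of all. Scaling by repeat counts left 0 of 8 called, where 15.1% of all subfamilies were called. FLAM_A and FRAM each lost their call without DMSO siNT 2-1V, 2-2VM or 4-2VM, and FAM gained one without 2-2V.

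Per length of sequence, the subfamilies lay close together. In 4OHT siNT the level was 13.8 CPM per Mb for AluJr4, 14.2 for AluJr, 15.2 for FLAM_A, 15.6 for AluJb and 15.9 for AluJo. FLAM_C had 18.01, FRAM 18.7 and FAM 19.8 CPM per Mb. The order puts 3 monomers on top, with AluJr4 the lowest.

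Levels differed far more between places than between subfamilies. Of the members, 223419 lay in introns, 14423 overlapped an exon and 119912 lay between genes. In 4OHT siNT the introns held 861 CPM of the library total (17.1 CPM per Mb), the exons 183 (54.7 per Mb) and the space between genes 163 (6.08 per Mb). These values count any overlap with an exon. Where an exon had to cover 50% of the element, the exons held 92.7 CPM (39.96 per Mb) and the introns 950.3 (18.5 per Mb), and the mean share of member counts in exons over the 17 libraries went from 14.6% to 7.67%. By both rules exonic elements were the most densely counted and intergenic ones the least.

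Introns split by strand. The strand of each element was read from the genome, and the authors counted reads by strand. Of the introns' elements with genes on 1 strand only, 98575 lay in the sense of the host gene and 110292 against it. The sense elements had counts in 47.1% of cases and the antisense ones in 15.2%. In 4OHT siNT the former held 683 CPM and the latter 91.0 CPM, so that 88.2% ± 1.42 of these counts (n = 6) fell on 47.2% of the loci. The share was 87.1% ± 1.84 in DMSO siNT and 88.2% ± 1.24 in 4OHT siSMARCA4, and over all 17 libraries it stayed within 85.4% and 90.5%. By subfamily it was lowest for AluJo, 82.6% in 4OHT siNT, and highest for FAM, 95.1%, where 54.8% of loci were in the sense. The strand of FAM could be checked on 3 elements only.

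Elements of both strands in introns were higher with siSMARCA4. The sense sum went from 683 to 930 CPM, a ratio of 1.36, and the antisense sum from 91.0 to 124 CPM, a ratio of 1.36 as well. Intergenic elements went from 163 to 219 CPM, a ratio of 1.34, and exonic ones from 183 to 213 CPM, a ratio of 1.17. Sense elements of introns carried 62.6% of the whole difference between the groups. Against DMSO, these sums in 4OHT siNT had ratios of 1.01 for the intron sense, 0.94 for the intron antisense and 0.88 for the intergenic class.

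In the test by subfamily and place, 9 of 24 classes rose with siSMARCA4, where 15.3% of all such classes were called and 14.3% called higher. They were 6 of 8 in introns and 3 of 8 between genes. By edgeR 0 of 8 exonic classes were called, 0 had an unadjusted p under 0.05, and DESeq2 called 0. The median change over the 24 was 0.31, against 0.26 over all classes. FLAM_C in introns had 27.6 ± 2.76 CPM in 4OHT siNT and 37.9 ± 3.85 CPM in siSMARCA4, a log2 change of 0.46 ± 0.12 (adjusted p = 0.0170). Intergenic AluJr had the largest change of the called classes, from 21.2 ± 2.31 to 31.1 ± 4.68 CPM, 0.55 ± 0.14 on the log2 scale (adjusted p = 0.0165). AluJb in introns went from 447 ± 26.7 to 600 ± 66.5 CPM (0.43, adjusted p = 0.0291). The other called classes were intergenic AluJb, intronic and intergenic AluJo, and intronic AluJr, FLAM_A and FRAM, with changes from 0.31 to 0.43. These 6 and intronic AluJb each lost their call without 4OHT siNT 4-2VM, at changes of 0.26 to 0.39, and 5 of the 7 also without other libraries, while intronic FLAM_C and intergenic AluJr kept theirs with each library left out in turn. The count of 9 fell to 2 without 4OHT siNT 4-2VM and to 4 without siSMARCA4 2-3V or 2-3VM. It was 0 with repeat scaling, with the far-locus covariate and within siRNA number 2 or 4. Of all classes 1.52%, 0.135%, 0.134% and 0.393% were called in those fits, in that order. The count was 3 with the V or VM tag as a covariate (5.96% of all classes called higher) and 1 within the VM libraries (4.33%).

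Split further by orientation, after the strand sums were seen, 20 of 54 classes rose, against 14.8% of all classes called higher. They were 5 of 8 in the sense of introns, 5 of 8 against it, 6 of 8 in introns with genes on both strands, 3 of 8 between genes and 1 of 7 in exons with genes on both strands. With repeat scaling or the far-locus covariate 0 of 54 were called. Before the split by orientation, 1.52% and 0.135% of all place classes were called in those fits. The count was 10 and 6 without 4OHT siNT 4-1VM and 4-2VM, and 7, 9 and 12 without siSMARCA4 2-3V, 2-3VM and 4-2V. The exonic class, AluJb where genes lie on both strands, went from 42.0 ± 3.45 to 61.1 CPM without overlap (0.54 ± 0.097, adjusted p = 0.0047) and kept its call with each library left out in turn. A large part of this class was a single element, the AluJb of EIF4EP2 described below, which rose as well. The class was not tested without it. For siSMARCA4 in 4OHT against DMSO siNT 26 rose, against 24.5% of all classes, and all 8 in the sense of introns were among them.

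Exonic elements in the antisense class varied mostly between libraries. Elements antisense to the exon's gene summed to 98.9, 81.2, 110, 37.2 and 29.6 CPM in the 5 DMSO siNT libraries, to 21.2 to 112 CPM in 4OHT siNT and to 51.9 to 120.3 CPM in siSMARCA4. The ranges overlapped in part, with siSMARCA4 4-3V above all libraries of the other groups, and libraries of 4OHT siNT differed by over 5 times. As a share of the exonic member counts on 1 strand, the antisense part was 34.0% to 71.9% in DMSO siNT, 26.1% to 68.6% in 4OHT siNT (median 51.3%) and 45.6% to 69.6% in siSMARCA4 (median 51.0%). An AluJb in RAB43P1 and another antisense to CLDN11 had the largest ranges of single elements in this class. They reached at most 7.58 and 7.03 CPM of the library total, and the CLDN11 element had 0 to 0.133 CPM in 4OHT siNT. With the antisense share as a covariate, a fit added after it was seen, the calls with siSMARCA4 were 7 of 8 subfamilies, 13 of 24 place classes and 186 of 1357 elements (13.7%). The 7 and the 13 were all higher, and in the same fits 22.7% of all subfamilies and 21.7% of all place classes were called higher and 12.9% of all repeat loci were called.

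With 4OHT alone, 1 of 24 classes by place was called, where 15.7% of all classes were and 8.79% were called higher. Exonic AluJo had 18.04 ± 3.99 CPM in DMSO siNT and 25.5 ± 5.81 CPM in 4OHT siNT, a log2 change of 0.50 (adjusted p = 0.0470). It lost its call without any 1 of 8 libraries, DMSO siNT 2-2V, 2-2VM, 4-2VM or 4-3VM, or 4OHT siNT 2-1VM, 4-1VM, 4-2VM or 4-3VM, with changes of 0.41 to 0.54. Split by orientation, 4 of 54 classes rose with 4OHT, against 8.81% of all classes called higher, and all 4 were exonic. AluJo in the sense of the exon's gene went from 2.66 to 6.78 CPM in DMSO siNT to 10.3 to 12.8 CPM in 4OHT siNT without overlap, a change of 1.27 ± 0.18 (adjusted p = 5.5e-05). An element in an exon of the pseudogene RPLP0P2, at chr11:61639330-61639610, held most of that class. It had 0.0860 to 0.302 CPM of the library total in DMSO siNT (median 0.120), 5.91 to 8.06 in 4OHT siNT and 5.17 to 7.39 in siSMARCA4, a change of 5.47 ± 0.24 with 4OHT, and was singled out after its values were seen. The filter on low counts asked for 0.190 CPM in at least 5 libraries, and the DMSO siNT median lay below that level. The element was thus tested through the 4OHT groups in which it was high, and no p is given. Without it the class had 4.66 CPM of the library total in DMSO siNT and 4.04 in 4OHT siNT, a ratio of 0.866 in place of 2.30.

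AluJr in the sense of exons rose by 0.47 ± 0.11 (adjusted p = 0.0041), AluJr where genes lie on both strands by 0.40 ± 0.099 (adjusted p = 0.0084), both without overlap, and AluJo where genes lie on both strands by 0.41 ± 0.12 (adjusted p = 0.0288), with overlap. As CPM of the library total, the ratios of 4OHT siNT to DMSO siNT were 1.32, 1.25 and 1.26 in that order, and without the element of largest rise in each class 1.26, 1.10 and 1.15. The last class lost its call without DMSO siNT 2-2VM or 4-3VM or 4OHT siNT 2-1VM, 4-1VM or 4-2VM (0.37 to 0.39), and the other 3 kept theirs with each library left out. For siSMARCA4 in 4OHT against DMSO siNT 11 of 24 classes were higher, 7 of them in introns, where 28.4% of all classes were called and 24.1% called higher.

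Position along the genome ordered the intergenic elements as well. The 16331 elements within 10000 bp downstream of a gene and on its strand held 81.7 CPM in 4OHT siNT, of 163 CPM for all intergenic elements, and 92.8 and 99.1 CPM in DMSO siNT and siSMARCA4. Elements on the strand of the nearest gene and upstream of it went from 23.2 CPM in 4OHT siNT to 39.5 CPM in siSMARCA4, a ratio of 1.70. The chromosome 16 AluJb described below held 7.53 CPM of this in siSMARCA4 on average, nearly all in 2 libraries, and without it, left out after its values were seen, the ratio was 1.38, against 1.29 for all intergenic elements without it. Beyond 50000 bp from a gene, 7.32% of 13627 elements had a count, and their sums were 2.14, 2.78 and 3.81 CPM in DMSO siNT, 4OHT siNT and siSMARCA4.

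**Figure D3:**
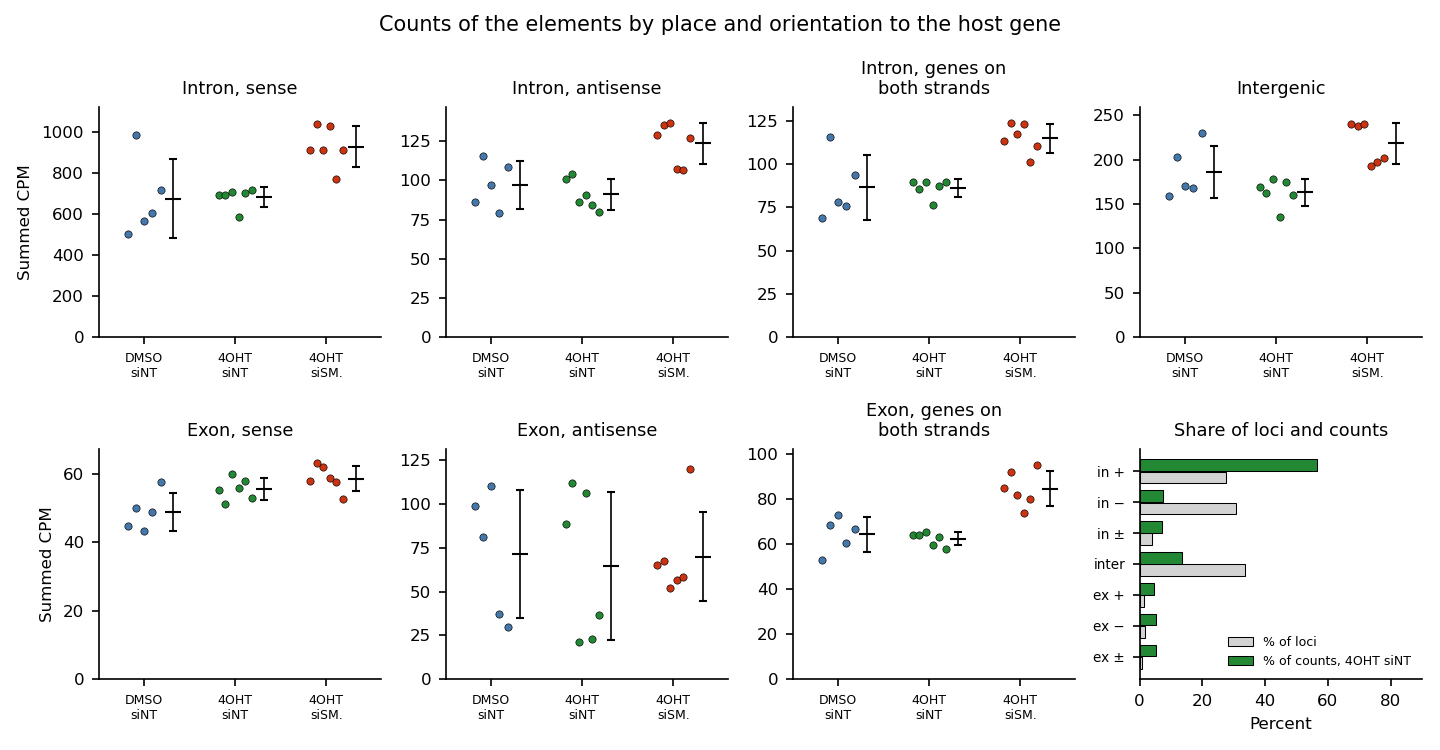
Panels give the summed CPM of members by place and orientation for each library of the 3 groups, with the mean and SD. The last panel gives the percent of loci and the percent of counts in 4OHT siNT on each class, where intronic elements in the sense of the host are 27.6% of loci and hold 683 CPM, and antisense ones are 30.8% and hold 91.0 CPM.

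Single elements were tested next. With siSMARCA4, 63 of 1357 rose and 17 fell, 5.90% in all, where 6.16% of all repeat loci tested were called, 4.36% higher and 1.80% lower, so the share lay near the background. With scaling by repeat counts 29 rose and 24 fell, 3.91%, against 4.69% of all loci. The median log2 change was 0.21, against 0.14 over all loci. Libraries did not overlap for 39 of the rises and 10 of the falls, and 3.13% of all loci were called in this way. By place, 51 rose and 14 fell of 951 in introns, 9 rose and 1 fell of 191 between genes, and 3 rose and 2 fell of 215 in exons. AluJb gave 33 rises and 7 falls of 734, AluJo 13 and 2 of 236, AluJr 10 and 4 of 217, AluJr4 4 and 2 of 72, FLAM_A 1 and 1 of 31 and FLAM_C 2 and 1 of 40. In FRAM 0 of 19 were called by edgeR, 2 had an unadjusted p under 0.05 and DESeq2 called 0, and in FAM all 3 counts were 0 of 8. The total of 80 calls was 33 to 88 with 1 library left out. It fell to 37, 43 and 41 without 4OHT siNT 2-1VM, 4-1VM and 4-2VM, and to 45, 33, 39 and 43 without siSMARCA4 2-1VM, 2-3V, 2-3VM and 4-2VM. It was 4 and 0 within siRNA numbers 2 and 4, where 0.931% and 0.0437% of all loci were called, and 1 with the far-locus covariate, where 0.115% were.

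The filter on low counts bears on these calls. An element was tested when it reached 0.190 CPM of the library total, 10 counts at the median depth, in at least 5 libraries of any group. Of the 63 rises, 29 would not have passed it without the siSMARCA4 libraries, in which they were high, and of the 17 falls 8 would not have passed without the 4OHT siNT libraries. For such an element the filter itself favours a difference, so its values and fitted change are given below with no p. Of the 8 named rises these were 6, all but those of NRG1 and KRR1, and of the 8 named falls 5, those of SERINC2, DRP2, KLF10, ITPRID2 and APLP1.

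The largest rise rested on 2 libraries. An AluJb between genes at chr16:56616091-56616416, 1147 bp upstream of MT1L and 6594 bp from MT2A in the metallothionein cluster, whose genes encode metal-binding proteins, had 0 to 0.127 CPM in 4OHT siNT (median 0.0998) and 0.333 to 22.6 CPM in siSMARCA4 (median 0.517). Libraries 2-1VM and 4-3V had 22.6 and 20.1 CPM and the other 4 had 0.333 to 0.528, all above 4OHT siNT. Its log2 change was 6.52 ± 1.22, and without those 2 libraries, a fit added after the values were seen, 2.37. MT1L had 46.1 and 52.9 CPM in the same 2 libraries, within the 41.0 to 57.7 CPM of the siSMARCA4 group, and MT2A had 2880 and 3463 CPM, within 2542 to 3495. Both genes rose with siSMARCA4, by 1.07 (adjusted p = 0.00010) and 0.48 (adjusted p = 0.032). The neighbours were examined after the element was seen.

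The other 7 named rises lay in introns and in the sense of their hosts. An AluJb of SNX9, a sorting nexin of endocytosis, at chr6:157800358-157800671, had 0 CPM in every DMSO siNT library, 0 to 0.0743 CPM in 4OHT siNT (median 0.0308) and 0.0784 to 0.377 CPM in siSMARCA4 (median 0.267). The groups did not overlap, and the fitted change was 2.75 ± 0.55, beside 0.06 for SNX9 itself. It reached the filter's level in 5 siSMARCA4 libraries and in 0 of the others. An AluJb of SLC7A11, the cystine transporter, at chr4:138238597-138238899, had 0.0254 to 0.167 CPM in 4OHT siNT (median 0.0788) and 0.321 to 0.603 CPM in siSMARCA4 (median 0.481). The change was 2.37 ± 0.44 without overlap, and SLC7A11 rose by 1.12.

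An AluJb of NALF1, in a gene for a partner of the NALCN sodium leak channel, had 0.0181 to 0.127 CPM in 4OHT siNT (median 0.0562) and 0.160 to 0.364 CPM in siSMARCA4 (median 0.252). The change was 2.08 ± 0.46, with 0.13 for its host. An AluJr of RAI14, an actin-associated ankyrin protein, had 0.0186 to 0.129 CPM (median 0.0938) and 0.200 to 0.505 CPM (median 0.371). The change was 2.06 ± 0.40, beside 0.16 for RAI14. In both cases the groups did not overlap, and the host gene was not called.

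An AluJo of NRG1, the ERBB receptor ligand neuregulin, at chr8:32620545-32620847, had 0.167 to 0.538 CPM in 4OHT siNT (median 0.319) and 0.661 to 2.35 CPM in siSMARCA4 (median 1.18). The change was 2.08 ± 0.38 (adjusted p = 0.0068) without overlap, and NRG1 rose by 0.53 (adjusted p = 0.0354). The remaining named rises were AluJb elements of TXNRD1, a thioredoxin reductase, by 2.02 ± 0.45 (host 0.75), and KRR1, a factor of ribosome assembly, by 1.99 ± 0.37 (host 0.56). Both hosts rose as well (adjusted p = 0.00021 and 0.00056).

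Among the falls, an AluJb of SERINC2, a serine incorporator, at chr1:31419546-31419856, had 0.0743 to 0.284 CPM in 4OHT siNT (median 0.200) and 0 to 0.0601 CPM in siSMARCA4 (median 0.0286). The change was −2.49 ± 0.57, and the change of SERINC2 was −0.83. An AluJr4 of DRP2, a dystrophin-related protein, had 0.207 to 0.284 CPM (median 0.253) and 0 to 0.116 CPM (median 0.0577), a change of −2.03 ± 0.45, with −1.44 for DRP2. Neither element had a siSMARCA4 library within the range of 4OHT siNT, and both hosts fell.

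A FLAM_C of IRF3, a transcription factor of the interferon response, had 0.246 to 0.635 CPM in 4OHT siNT (median 0.526) and 0.0188 to 0.237 CPM in siSMARCA4 (median 0.148). Its change was −1.88 ± 0.49 (adjusted p = 0.0313), while IRF3 had −0.09 and was not called. The element lost its call without any 1 of 8 libraries, 4OHT siNT 2-1VM, 4-1VM, 2-2VM, 4-2VM or 2-3VM, or siSMARCA4 2-1VM, 2-3VM or 4-2VM, at changes of −2.01 to −1.72. An AluJo of NCKIPSD, a partner of the NCK adaptor, at chr3:48676479-48676792, had 0.355 to 0.910 CPM (median 0.646) and 0.137 to 0.311 CPM (median 0.277), a change of −1.36 ± 0.28 (adjusted p = 0.0117), with −0.58 for its host. The other named falls were elements of KLF10 (−1.46), ITPRID2 (−1.31), DRG1 (−1.31) and an exon of APLP1 (−1.26). The elements of KLF10, APLP1 and ITPRID2 would not have passed the filter without 4OHT siNT, so their fitted calls are no test. Even so, these calls were lost in 8, 4 and 11 of the fits with 1 library left out. The changes in those fits were −1.52 to −1.33, −1.29 to −1.16 and −1.42 to −1.16. With the far-locus covariate 0 of the 16 named elements were called, with changes of 1.34 to 7.66 for the 8 rises and −2.64 to −0.93 for the 8 falls. The filter favours a difference for 6 of these rises and 5 of these falls, so no p is given. Without both libraries high at the chromosome 16 element, 23 rises and 7 falls were called over all members, 2.04% of 1468 tested, against 2.01% of all loci.

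**Figure D4:**
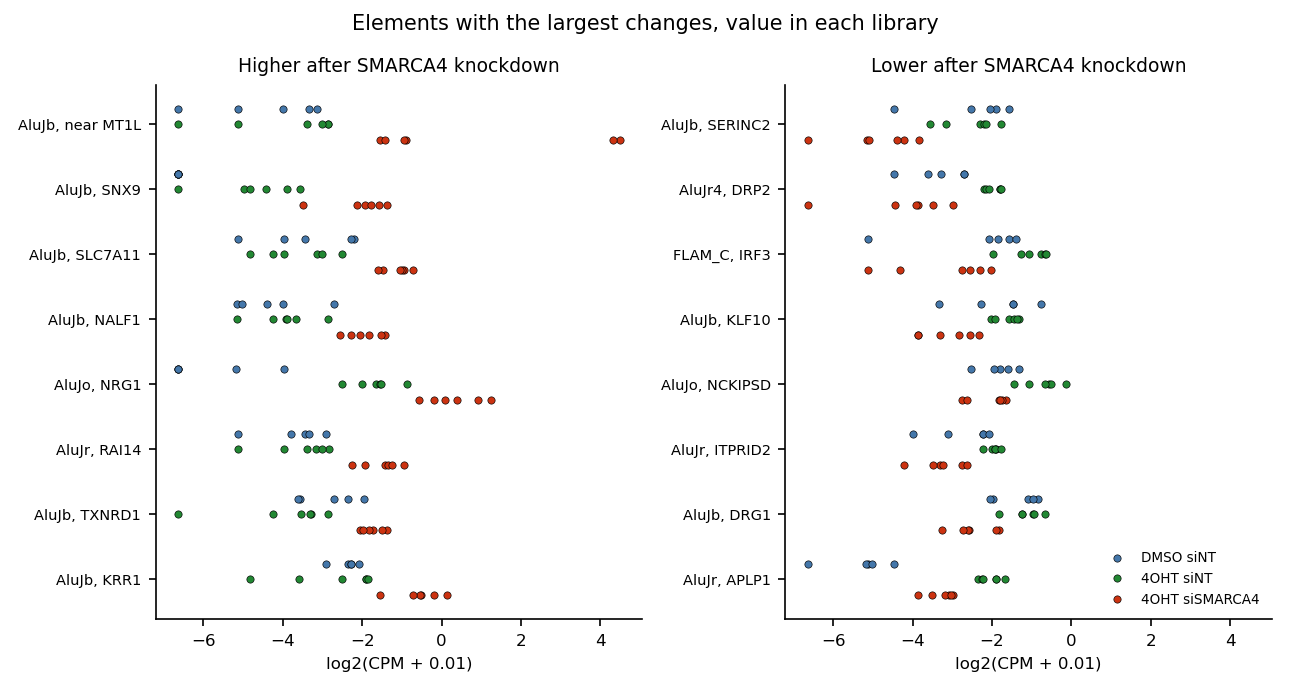
Rows of points give log2(CPM + 0.01) per library for the 8 named rises and the 8 named falls with siSMARCA4, for the 3 groups. The chromosome 16 AluJb shows 2 siSMARCA4 libraries at 20.1 and 22.6 CPM and 4 between 0.333 and 0.528 CPM, and the other elements stay at or under 2.35 CPM.

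Senescence itself moved many more single elements. With 4OHT against DMSO in siNT cells 203 of 1357 rose and 106 fell, 22.8% in all, where 27.4% of all repeat loci were called, 18.1% higher and 9.32% lower. The limit of the filter holds here too. Of the rises, 75 would not have passed it without the 4OHT siNT libraries, and for 112 no DMSO library reached its level. Of the falls, 45 would not have passed without the DMSO siNT libraries. Without overlap were 118 rises and 57 falls, and 17.3% of all loci were called in this way. Between genes 41 rose and 36 fell of 191 (40.3%), in introns 143 and 62 of 951 (21.6%), and in exons 19 and 8 of 215 (12.6%). Shares of all repeat loci by place were not set beside these. The subfamily sums, which did not pass the test in this comparison, thus held rises and falls side by side.

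Several elements had no count in DMSO siNT. Where all 5 DMSO libraries were at 0, the fold used a floor of 3 counts for the whole group, which covers counting error only. In all 8 named rises 0 DMSO libraries reached the filter's level, so they were tested through the 4OHT groups in which they were high, and no p is given for them. An AluJb in an exon shared by ENSG00000254409 and ENSG00000244953, on opposite strands, at chr11:43945571-43945875, had 0.0645 to 0.511 CPM in 4OHT siNT (median 0.288) and was at least 27.9-fold higher. An AluJb of NRG1 at chr8:32695074-32695359 had 0.0861 to 0.409 CPM (median 0.190), at least 19.96-fold higher, and NRG1 rose by 3.35. An AluJo at chr6:26218253-26218388 in 2 unnamed genes had 0.0762 to 0.323 CPM (median 0.224) and was at least 19.4-fold higher. These 3 elements were likewise above all DMSO libraries in every siSMARCA4 library.

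The other named rises with 4OHT were of the same kind. An AluJr antisense to FER1L6-AS2 was at least 19.1-fold higher, an AluJo of TEX14, a protein of germ cell bridges, at least 16.8-fold, and an AluJb where ARSG and SLC16A6 overlap on opposite strands at least 13.97-fold. TEX14 itself rose by 3.39. An AluJb of the pseudogene RPLP0P2 at chr11:61633864-61634124 had 1 count in DMSO siNT and 205 in 4OHT siNT, a ratio of 175 with a 95% interval of 31.1 to 6958, and RPLP0P2 rose by 5.60. A FLAM_C at chr8:125424860-125424995, 5363 bp upstream of TRIB1, a pseudokinase, had 1 count against 159, a ratio of 136 (24.1 to 5404), and TRIB1 rose by 2.31.

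The largest fall with 4OHT was an AluJb antisense to an untranslated exon of CLDN11, a claudin of tight junctions, at chr3:170433131-170433435. It had 7.06, 4.56, 4.82, 1.30 and 0.425 CPM in the DMSO siNT libraries and 0 to 0.130 CPM in 4OHT siNT (median 0.072), a change of −5.68 ± 0.69 (adjusted p = 5.1e-06). The groups did not overlap, and the 2 DMSO libraries lowest here were also the lowest in the exonic antisense sum. A second AluJb, in an intron of CLDN11 and in its sense, at chr3:170427876-170428156, had 0.704, 0.719, 0.464, 0.740 and 0.779 CPM in DMSO siNT and 0 to 0.0861 CPM in 4OHT siNT (median 0.0215), a change of −4.30 ± 0.56. That element and the other named falls but the first would not have passed the filter without the DMSO libraries, and no p is given for these 7. An AluJo in an intron of ENSG00000259316 had 119 counts in DMSO siNT and 3 in 4OHT siNT, a ratio of 0.0216 (0.00438 to 0.0646), beside −1.37 for its host.

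An AluJb of RPTOR, the scaffold of the mTOR complex, stood apart from its host. It lies antisense to the gene at chr17:80830747-80831041 and had 0.593, 0.554, 0.392, 0.452 and 0.301 CPM in DMSO siNT and 0.0181 to 0.0757 CPM in 4OHT siNT (median 0.0469). The change was −3.16 ± 0.53 without overlap, while RPTOR had −0.08 (adjusted p = 0.60). Another element of RPTOR fell by 2.53 on the log2 scale. The remaining named falls were an AluJo of ARSJ, an arylsulfatase (−3.50, host −1.998), an AluJo 968 bp downstream of LAYN, a hyaluronan receptor (−2.90, LAYN −1.69), and AluJb elements where PTPRG and ID2B (−4.54) and ENSG00000267787 and ATP8B1 (−3.22) overlap.

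For siSMARCA4 in 4OHT against DMSO siNT 303 elements rose and 78 fell (28.1%), where 30.6% of all loci were called, 22.7% higher and 7.95% lower. Of the rises 127 would not have passed the filter without the siSMARCA4 libraries, and of the falls 30 would not have passed without the DMSO siNT libraries. The NRG1 AluJb went from 0 to 215 counts, at least 58.1-fold higher, the chromosome 6 AluJo was at least 36.8-fold higher and the TEX14 AluJo at least 28.1-fold higher. The largest falls were at the same CLDN11 exon (−3.87), RPTOR (−3.86) and ENSG00000259316 (−3.65) as with 4OHT alone. These values share libraries with both comparisons above.

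The most counted elements were not the most changed. An AluJb annotated over 1968 bases at chr17:49423055-49425022, in an exon of the pseudogene EIF4EP2 within ENSG00000262039, had 16.4, 23.3, 24.4, 28.6 and 35.7 CPM in DMSO siNT, 17.5 to 30.0 in 4OHT siNT (median 22.7) and 31.2 to 41.6 in siSMARCA4 (median 36.7). It rose with siSMARCA4 by 0.63 ± 0.16 (adjusted p = 0.0266) without overlap. An AluJb 207 bp downstream of TRNP1, a nuclear protein of neural progenitors, at chr1:27001093-27001378, had 7.39 to 9.70 CPM in 4OHT siNT (median 8.71) and 3.09 to 5.41 in siSMARCA4 (median 3.66). It fell by 1.07 on the log2 scale (adjusted p = 0.0061), and the change of TRNP1 was −1.06.

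An intergenic AluJb at chrX:26206717-26207478 had 12.6 to 22.3 CPM in DMSO siNT and 8.34 to 11.99 in 4OHT siNT, a change of −0.76 ± 0.13 with 4OHT (adjusted p = 0.00020). An AluJo at chr6:26215623-26215862 had 2.08 to 4.18 CPM in DMSO siNT and 6.07 to 7.75 in 4OHT siNT, a change of 1.25 ± 0.19 (adjusted p = 6.1e-05). Neither pair of groups overlapped.

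The most counted monomers outside exons, 1 per subfamily, were read as well. The FLAM_A of SGIP1, an endocytosis protein, changed in both comparisons. It had 0.493 to 0.673 CPM in DMSO siNT, 0.199 to 0.397 in 4OHT siNT (median 0.303) and 0.561 to 0.847 in siSMARCA4 (median 0.598). The 4OHT siNT libraries lay below both other groups, with changes of −0.96 with 4OHT (adjusted p = 0.0024) and 1.13 with siSMARCA4 (adjusted p = 0.0074). The FLAM_C of KLC1, a kinesin light chain, the FRAM near CDK9, a kinase of transcription elongation, and the printed FAM of RRP36, a factor of ribosomal RNA processing, had changes of 0.70 (adjusted p = 0.107), 0.57 (adjusted p = 0.193) and −0.32 with siSMARCA4.

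Intronic elements were then set beside their host genes. A single tested host was found for 740 tested elements in 576 genes, 683 in the sense and 57 antisense, and the changes of both came from the same fit. With 4OHT, 536 of 740 (72.4%) had the sign of their host, and across these elements Pearson's r was 0.68 and Spearman's rho 0.58, a description over elements that share libraries, depth and often a host. Of the 153 called elements, 110 had a host called the same way, 5 a host called the other way and 38 a host not called. Of all genes tested 54.4% were called with 4OHT, in either direction. With siSMARCA4, 452 (61.1%) had the sign of their host, with r = 0.38 and rho = 0.34. Of 51 called elements, 19 had a host called the same way, 2 the other way and 30 a host not called, where 24.2% of all genes tested were called. The median element had 0.19 with siSMARCA4, while the median host had −0.04, and with 4OHT the medians were 0.29 and 0.09. The called elements of both comparisons carry the limit of the filter given above and were not split by it.

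Hosts with several elements showed both patterns, and were examined after the values were seen. NRG1 had 6 tested elements, all fitted higher with 4OHT, at 3.11 to 6.62 (host 3.35). The upper end belongs to the AluJb without a DMSO count, for which only the lower bound given above holds. With siSMARCA4 4 of the 6 were called, at 1.08 to 2.08, and the host had 0.53. The AluJb without a DMSO count reached the filter's level in 3 of 6 4OHT siNT libraries and in 6 of 6 siSMARCA4 libraries. It would not have passed the filter without the siSMARCA4 libraries. All 5 of PLAT, the tissue plasminogen activator, rose with 4OHT by 1.96 to 3.65 (host 2.87), as did all 4 of ANGPTL4, an inhibitor of lipoprotein lipase, by 2.33 to 3.76 (host 2.68). Both elements of TLK2, a kinase of chromatin assembly, fell with changes of −1.74 and −1.23 while their host had −0.11. ENSA, with 6 tested elements, had 0 called with 4OHT. For the called elements of these hosts the limit of the filter holds too, and those it touched were not counted.

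**Figure D5:**
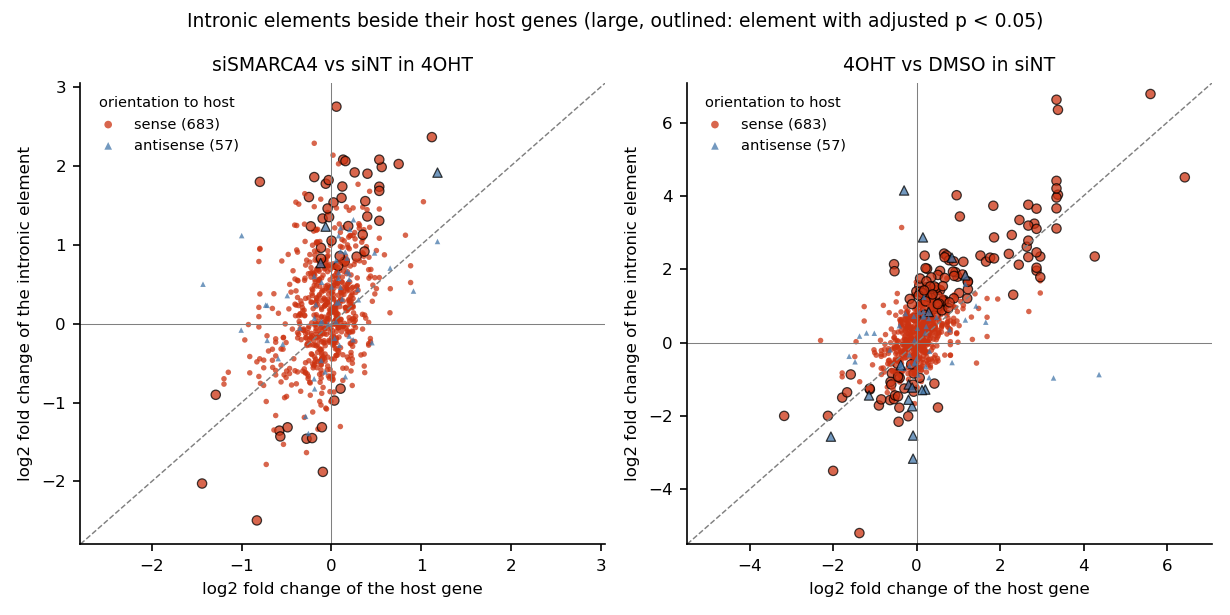
Each point is an intronic element, the x axis is the log2 fold change of its host gene and the y axis that of the element, for siSMARCA4 against siNT and for 4OHT against DMSO, with circles for the 683 sense and triangles for the 57 antisense elements and large outlined points where the element is called. The dashed line marks equal change, and Pearson's r across the elements was 0.38 for siSMARCA4 and 0.68 for 4OHT.

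Genes whose products transcribe, bind, edit or sense Alu RNA were read from the gene table. With siSMARCA4 4 of 39 were called, where 24.2% of all genes tested were. HNRNPC, which binds the poly-U of antisense Alu in introns, rose by 0.31 (adjusted p = 0.0181) and RIGI, a sensor of viral RNA, by 0.21 (adjusted p = 0.0421). GTF3C1, which binds the B box of RNA polymerase III promoters, had −0.25 (adjusted p = 0.0236) and MAVS, the adaptor of RNA sensing, −0.17 (adjusted p = 0.0469). HNRNPC kept its call with each library left out, while MAVS lost it without any of the 12 libraries but siSMARCA4 4-2V (−0.19 to −0.14), RIGI without any but 4OHT siNT 2-2VM and 4-3VM and siSMARCA4 2-3V (0.20 to 0.21), and GTF3C1 without 4OHT siNT 4-1VM or 4-2VM or siSMARCA4 2-3V or 4-2VM (−0.24 to −0.22). The 4 calls fell to 1 or 2 without any 1 of 8 libraries, 4OHT siNT 2-1VM, 4-1VM, 4-2VM and 2-3VM and siSMARCA4 2-1VM, 2-3V, 2-3VM and 4-2VM.

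With 4OHT 13 of the 39 genes rose and 6 fell, where 54.4% of all genes were called. Of 19 genes of RNA polymerase III and its factors 7 rose and 3 fell, among the former POLR3A, the largest subunit (0.85), POLR3E (0.70) and POLR3D (0.63), and among the latter POLR3G, a subunit of stem and early cells (−1.33). Of 9 genes of editing and binding 3 rose and 2 fell, with ADAR, the editor of Alu pairs, at 0.52 and the helicase DHX9 at −0.28. Of 6 proteins of the signal recognition particle 2 rose, while SRP9 (−0.26) and SRP14 (0.06), which bind Alu RNA, were not called. Of 5 sensing genes MAVS rose by 0.18, a call lost without DMSO siNT 2-1V, 2-2V or 4-2VM or 4OHT siNT 2-1VM or 2-3VM (0.14 to 0.16), and RIGI had −0.31. For siSMARCA4 in 4OHT against DMSO siNT 11 of the 39 rose and 6 fell, where 55.1% of all genes were called.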

How the data were processed

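RNA from 17 IMR90 ER:RAS libraries in 3 groups was enriched for poly(A) RNA and sequenced with a directional kit. Per the labels and the study's methods, the authors trimmed reads with cutadapt 4.7, aligned them to GRCh38 with HISAT2 2.2.1 and counted 62754 genes and 4748242 repeat loci with TElocal, which shares multiply mapping reads among loci. The deposited values are expected counts, written as whole numbers, so near-identical copies can trade counts. CPM (counts per 1e6 library counts) were computed here from those deposited counts.

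Groups were taken from the sample titles. Counts were summed per subfamily, per subfamily and place, and kept per locus (at least 10 counts in all), each joined with the genes, and tested over all 17 libraries with edgeR 4.0.16 (R 4.3.3) quasi-likelihood tests, TMM factors and filterByExpr (minimum count 10, minimum total 15), with Benjamini-Hochberg adjustment over all repeats or all genes and calls at 0.05. SE is the absolute log2 change over the square root of F. The subfamily fit of siSMARCA4 against siNT was also run on simulated counts, with the outcome not given here. Those counts held no library-wide shift of repeats and no V or VM difference. The run therefore does not bear on scaling or covariates.

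Places came from GENCODE 44 with bedtools 2.31.1, an element being exonic at any overlap with an exon. Strands were read from the genome by an 8-base word score (Python 3.11.15, numpy 2.4.6, pandas 2.3.3, scipy 1.17.1, matplotlib 3.10.9), which gave the strand of the B box for 9300 of 9314 members held out of its training (99.85%). Only elements with an unaltered B box could be checked in this way. Among them were 14 of FRAM, 13 of which matched, and 3 of FAM. Sums over places and over all members are CPM of the library total. Intervals of ratios with 1 to 3 counts are exact at 95%, and they and the floor of 3 counts cover counting error only.

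Named were all 8 subfamilies, the 8 largest called rises and falls without overlap per comparison (3 and 3 for siSMARCA4 in 4OHT against DMSO), the 5 elements of highest mean CPM (1 of them and some sequences are not reported here), their hosts, SMARCA4 and the Alu RNA genes. The members and lists were chosen with earlier results of these data known. Neighbour genes, hosts with several elements, orientation classes, the difference between siRNA numbers, the exonic antisense share and the fits without 2 libraries were chosen after seeing the data. DESeq2 1.42.0 served as an alternative, with other scaling, filters, covariates and left-out libraries.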

Additional observations from a re-analysis of the deposited data

Results flagged for a closer look

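In 12 of 162 groups of libraries tested, 1 library lay farther from its nearest neighbour than Dixon's 95% limit allows, where chance gives about 1 in 20 groups.

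The library 4OHT siNT 4-2VM was low in introns, with 752 CPM over all intronic members (others 876 to 885) and 586 CPM over those in the sense of the host (others 693 to 716). It is also the library whose absence cost most calls by place.

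DMSO siNT 2-2V was high in 4 cases. It had 37.0 CPM of FLAM_A (others 23.8 to 26.7), 0.144 CPM of the AluJb of NALF1 (others 0.0178 to 0.0531), 0.616 CPM of the AluJo of ENSG00000259316 (others 0.392 to 0.445) and 0.821 CPM of the AluJb where ENSG00000267787 and ATP8B1 overlap (others 0.288 to 0.339). DMSO siNT 2-2VM was low at the intronic AluJb of CLDN11, with 0.464 CPM (others 0.704 to 0.779).

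In siSMARCA4, library 4-3V had 120.3 CPM of exonic antisense members (others 51.9 to 67.2) and library 2-3V had 0.601 CPM of the AluJb at chr11:43945571-43945875 (others 0.203 to 0.301).

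The remaining 3 cases were single counts or few counts beside libraries at 0, namely 0.0185 CPM of the RPLP0P2 AluJb in DMSO siNT 2-1V, 0.0178 CPM of the FLAM_C near TRIB1 in DMSO siNT 2-2VM and 0.0762 CPM of the AluJo of ENSG00000259316 in 4OHT siNT 2-3VM.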

How the results depend on the processing

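The number of calls with siSMARCA4 against siNT depended on how the libraries were scaled and modelled. TMM factors from the repeats shifted all log2 changes by −0.23 for siSMARCA4 against siNT, −0.11 for 4OHT against DMSO and −0.34 for siSMARCA4 in 4OHT against DMSO. For siSMARCA4 against siNT, 7 subfamilies were called as reported, and 0 were called with that scaling, 0 with the V or VM covariate, 3 within VM libraries, 0 within siRNA number 2, 0 within number 4 and 0 with the far-locus covariate (5 to 7 with 1 library left out). Of all subfamilies 2.73%, 5.75%, 10.7%, 1.17%, 6.35% and 0.195% were called in these fits, in that order. Against 9 place classes the counts were 0, 3, 1, 0, 0 and 0 in that order (2 to 11), and against 20 orientation classes 0 with repeat scaling and 0 with the far-locus covariate (6 to 23). Against 80 elements called of 1357 tested, 53 were called with repeat scaling (29 higher and 24 lower, against 63 and 17), 4 of 1337 tested within siRNA number 2, 0 of 1673 within number 4, 1 with the far-locus covariate, 186 with the exonic antisense share and 30 without both siSMARCA4 libraries high on chromosome 16 (33 to 88). Of all repeat loci 4.69%, 0.931%, 0.0437%, 0.115%, 12.9% and 2.01% were called in these fits. Against 4 Alu RNA genes 1 to 6 were called with 1 library left out.

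For 4OHT against DMSO, 0 subfamilies were called as reported, 1 was called with the far-locus covariate and 3 without both DMSO libraries high in far-locus CPM (0 to 0 with 1 library left out). Of all subfamilies 18.2% were called with that covariate and 18.5% without both libraries. Against 1 place class, exonic AluJo, the counts were 0 with repeat scaling, 0 with 2 groups in the fit, 3 without both DMSO libraries (exonic AluJo not among them, at 0.46, adjusted p = 0.130) and 2 with the antisense share (0 to 1), and against 4 orientation classes 3 to 4 with 1 library left out. Of all place classes 16.6%, 14.8%, 16.2% and 23.3% were called with repeat scaling, 2 groups, both DMSO libraries out and the antisense share. Against 309 elements called, 515 of 19443 tested were called without the filter, 173 within siRNA number 2 and 180 within number 4. These were 2.65%, 12.9% and 10.8% of members tested. Of all loci, more were called in the same fits, 4.16% without the filter and 18.4% within number 2. Within number 4, 2410 of 16032 loci were called, again a higher share. With 1 library left out, 246 to 301 elements were called, and against 19 genes 18 to 22. For siSMARCA4 in 4OHT against DMSO, 7 subfamilies were called as reported, and 0 were called with repeat scaling, 4 within number 2 and 3 within number 4 (5 to 8). Of all subfamilies 15.1%, 17.8% and 24.9% were called in those fits. Against 11 place classes there were 2, 7 and 1 in that order, 6 within VM libraries and 5 with the far-locus covariate (7 to 12), and against 26 orientation classes 4 with repeat scaling and 16 with the covariate (18 to 29). Of all place classes 16.7%, 17.6%, 11.4%, 15.5% and 18.7% were called in the same fits, and shares of all orientation classes were not set beside these. Against 381 elements called, 761 of 19443 tested were called without the filter, 201 of 1451 within VM libraries and 140 within number 4 (301 to 383), and against 17 genes 10 to 19. For siSMARCA4 in 4OHT against DMSO, the element counts were 3.91%, 13.9% and 8.37% of members tested. These lay below the 5.07%, 16.6% and 12.2% of all loci in the same fits.

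The fit with the replicate label as a block, the numbers being shared but not shown to pair libraries (correlation of deviations 0.11, 0.33 and −0.14 for siSMARCA4 against siNT, and −0.37, −0.29 and 0.20 for 4OHT against DMSO), called 0 subfamilies, 0 place classes and 0 elements for siSMARCA4 against siNT, 0 place classes and 97 elements for 4OHT against DMSO, and 1 subfamily, 0 place classes and 52 elements for siSMARCA4 in 4OHT against DMSO. For siSMARCA4 against siNT 1.46% of all subfamilies, 0.269% of all place classes and 0.0691% of all repeat loci were called in that fit. Only the labels 2-1VM, 2-3VM and 4-2VM have libraries of both groups of that comparison. For 4OHT against DMSO 7.15% of members and 11.4% of all repeat loci were called, and 6.19% of all place classes. For siSMARCA4 in 4OHT against DMSO 3.83% of members, 5.73% of all repeat loci, 5.75% of all subfamilies and 3.23% of all place classes were called. The fit kept 18 of 38 named calls, with the limit of the filter given below.

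Changes of sign touched values near 0. With repeat scaling these were FAM (−0.076) for siSMARCA4 against siNT, AluJb (−0.027), AluJr (−0.019), AluJr4 (−0.046), FLAM_C (−0.030) and FRAM (−0.064) for 4OHT against DMSO, and FAM (−0.061) and FRAM (−0.0049) for siSMARCA4 in 4OHT against DMSO. With the far-locus covariate FAM was −0.010 for siSMARCA4 against siNT. For 4OHT against DMSO, siRNA number 4 gave −0.0087 for AluJr, −0.018 for FAM and −0.21 for FRAM, number 2 gave −0.016 for AluJr4, and FRAM was −0.024 within VM libraries, −0.0018 with the block and −0.0090 with the antisense share. FLAM_A, at −0.016, was 0.098 with the V or VM covariate, 0.083 within VM libraries, 0.068 within number 4, 0.044 with the block, 0.045 with the far-locus covariate, 0.13 without both DMSO libraries and 0.0037 with the antisense share. With 1 library left out these 4OHT values ran from −0.030 to 0.14 for AluJb, −0.022 to 0.14 for AluJr, −0.035 to 0.12 for AluJr4, −0.083 to 0.087 for FLAM_A, −0.0099 to 0.15 for FLAM_C and −0.045 to 0.11 for FRAM.

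The ratio of summed CPM for siSMARCA4 to siNT, 1.33, was 0.999 as a share of SINE/Alu counts (1.30 to 1.36 with 1 library left out), and that of 4OHT to DMSO, 0.981, was 1.06 with TMM factors (0.940 to 1.065). With exons counted at 50% overlap, the mean intron share of member counts over the 17 libraries went from 71.3% to 78.2% and the exon share from 14.6% to 7.67%. All 38 named calls were kept under DESeq2, repeat scaling and the antisense share, 35 with the V or VM covariate and 22 with the far-locus covariate. Many of the 38 elements would not have passed the filter without the group in which they were high. For them a kept call is no support. They were 6 of 8 rises and 5 of 8 falls with siSMARCA4, and 2 of 8 and 7 of 8 with 4OHT. For siSMARCA4 in 4OHT against DMSO siNT they were 3 of 3 and 2 of 3. The causes of these differences were not tested. Depth limits the work to 1357 of 357754 members, and a p over the threshold does not show that a subfamily was unchanged.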
